A study of Mus musculus with 12 samples.

Results

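The enzymes that hydroxylate and crosslink collagen were followed in tumors of the SVR mouse angiosarcoma line treated with a MEK inhibitor, a VEGF receptor inhibitor or both. Members were chosen by gene name: Lox, Loxl1, Loxl2, Loxl3, Loxl4, Plod1, Plod2, Plod3, P4ha2 and P4ha3, which are 10 of the 54232 genes in the count table. All 10 passed the filter on low counts and were among the 12897 genes tested. Lox, which encodes lysyl oxidase, was the only member to pass the threshold by edgeR: it was 11.4-fold lower in tumors given both drugs than with vehicle. In that comparison 3.61% of all genes tested passed the same threshold, and 9.98% passed the false discovery rate (FDR) at any fold. The Lox result was lost in most refits that left out 1 tumor. The other 9 members passed the threshold in none of the 6 comparisons by edgeR.

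The study asked how MEK inhibition with trametinib and VEGF receptor inhibition with cediranib, alone and together, act on angiosarcoma, a malignant tumor of endothelial cells. SVR is a transformed mouse endothelial line, and the tumors were subcutaneous grafts of this line in nude mice, which lack T cells. RNA came from lysate of whole frozen tumors, so the counts mix the grafted cells with host stroma, vessels and any attached skin or muscle, all of which are mouse. Libraries were made by capture with exome probes, so a count reflects the probes of a gene as well as its transcripts.

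There were 4 groups of 3 tumors: control, trametinib, cediranib and combination. Control mice received the vehicle (cremaphor, PEG 400 and tween), trametinib was dosed at 1 mg/kg and cediranib at 3 mg/kg, and combination mice received both drugs at those doses. Drugs were given by gavage every day once tumors had been established for 3 to 7 days, and the labelled endpoint was ulceration or a size limit. In the study's experiment with that endpoint, trametinib and combination mice were followed for longer than control and cediranib mice. Time on treatment may thus differ between groups as well as tumors, and cannot then be told apart from treatment. Another experiment took all tumors at the same time, and the labels do not name the experiment. The strain label is C57BL/6 for every sample, while the hosts are described as nude mice, and no age is labelled. The methods describe cells injected into a flank of each mouse, but the labels do not tie the samples to individual mice, so p-values measure the spread between these tumors.

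Collagen chains are modified before they fold. Prolyl 4-hydroxylases, whose alpha subunits are P4ha1, P4ha2 and P4ha3, hydroxylate prolines and so stabilise the triple helix, and lysyl hydroxylases (Plod1, Plod2 and Plod3) hydroxylate lysines that later carry sugars or form crosslinks. Outside the cell, lysyl oxidase and its relatives Loxl1 to Loxl4 are copper-dependent amine oxidases that oxidise lysines of collagen and elastin, from which covalent crosslinks form. In tumors these enzymes are known for stiffening of the matrix, and several of the genes, Lox and Plod2 among them, are known targets of hypoxia-inducible factors.

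The 12 libraries held 9478865 to 11666094 counts, and member counts per library ran from 5 (Loxl2) to 1577 (Plod1). Levels are given as CPM, counts scaled to the library size after TMM scaling, and fold changes on the log2 scale with a standard error (SE) and an edgeR quasi-likelihood FDR over all genes tested. Genes under an FDR of 0.05 were called where the log2 fold change was at least 1.5 in size. Markers of the endothelium were detected in control tumors, with Tie1 at 108 to 181 CPM and Cdh5 at 45.3 to 120 CPM, but Emcn stayed at 0.0852 to 0.303 CPM there. Control 2 and trametinib 2 stood apart by skeletal muscle markers, which summed to 16830 and 23630 CPM against 5.86 to 1976 CPM in the other 10 tumors.

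Lox (ENSMUSG00000024529, chromosome 18, 52516069 to 52529867, minus strand, GRCm38) was measured at 12.01, 45.3 and 122 CPM in control 1, 2 and 3. It was at 57.01, 163 and 36.4 CPM in the trametinib tumors and at 9.79, 49.6 and 6.89 CPM in the cediranib tumors. In the combination tumors it was at 3.74, 6.26 and 5.66 CPM. All 3 combination tumors were thus below every other tumor of the study, whereas control, trametinib and cediranib tumors overlapped with each other. The group means were 59.6 ± 56.2, 85.4 ± 67.8, 22.1 ± 23.8 and 5.22 ± 1.32 CPM (SD, n = 3) for control, trametinib, cediranib and combination.

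Against control, Lox fell by 3.50 on the log2 scale in the combination tumors (SE 0.94, edgeR FDR = 0.0376, 95% interval -5.56 to -1.45). It was the single member called in this comparison, in which 466 genes, or 3.61% of all tested, were called and 9.98% passed the FDR at any fold. The call depended on individual tumors. Without control 1 the FDR was 0.0178, but it was 0.0688 without control 2, the tumor rich in muscle transcripts, and 0.148 without control 3, the control tumor highest in Lox, where the log2 fold change was -2.45. Leaving out combination 1, 2 or 3 gave FDRs of 0.114, 0.0975 and 0.102 with log2 fold changes of -3.31 to -3.65.

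Combination against trametinib gave the largest Lox difference of the pairwise comparisons, with a log2 fold change of -4.02 (SE 0.96) and an edgeR FDR of 0.0691, just outside the threshold. The call rule took 87 genes here, 0.675% of all tested, and 0.969% passed the FDR at any fold. With DESeq2 the Lox FDR was 0.00262, and with only these 2 groups in the edgeR fit it was 0.00952, while leaving out trametinib 2, the tumor highest in both Lox and muscle markers, gave -3.16 and 0.171. Combination against cediranib gave -2.08 (SE 0.92, FDR = 0.197), and this value rested on cediranib 2, without which it was -0.67.

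The single drugs gave no call for Lox by edgeR or DESeq2. For trametinib against control the log2 fold change was 0.52 (95% interval -1.28 to 2.31, edgeR FDR = 0.789), and its sign turned to -0.35 without trametinib 2. For cediranib against control it was -1.43 (95% interval -3.28 to 0.42, FDR = 0.999), ranging from -2.84 without cediranib 2 to -0.37 without control 3. Whether cediranib acted differently with and without trametinib was tested as an interaction, and the Lox estimate was -2.59 (SE 1.23, unadjusted p = 0.0569 in edgeR, FDR = 0.708), or -3.65 to -1.19 with 1 tumor left out. The larger fall after both drugs was therefore not shown to exceed the sum of the single-drug effects on the log2 scale.

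**Figure D1:**
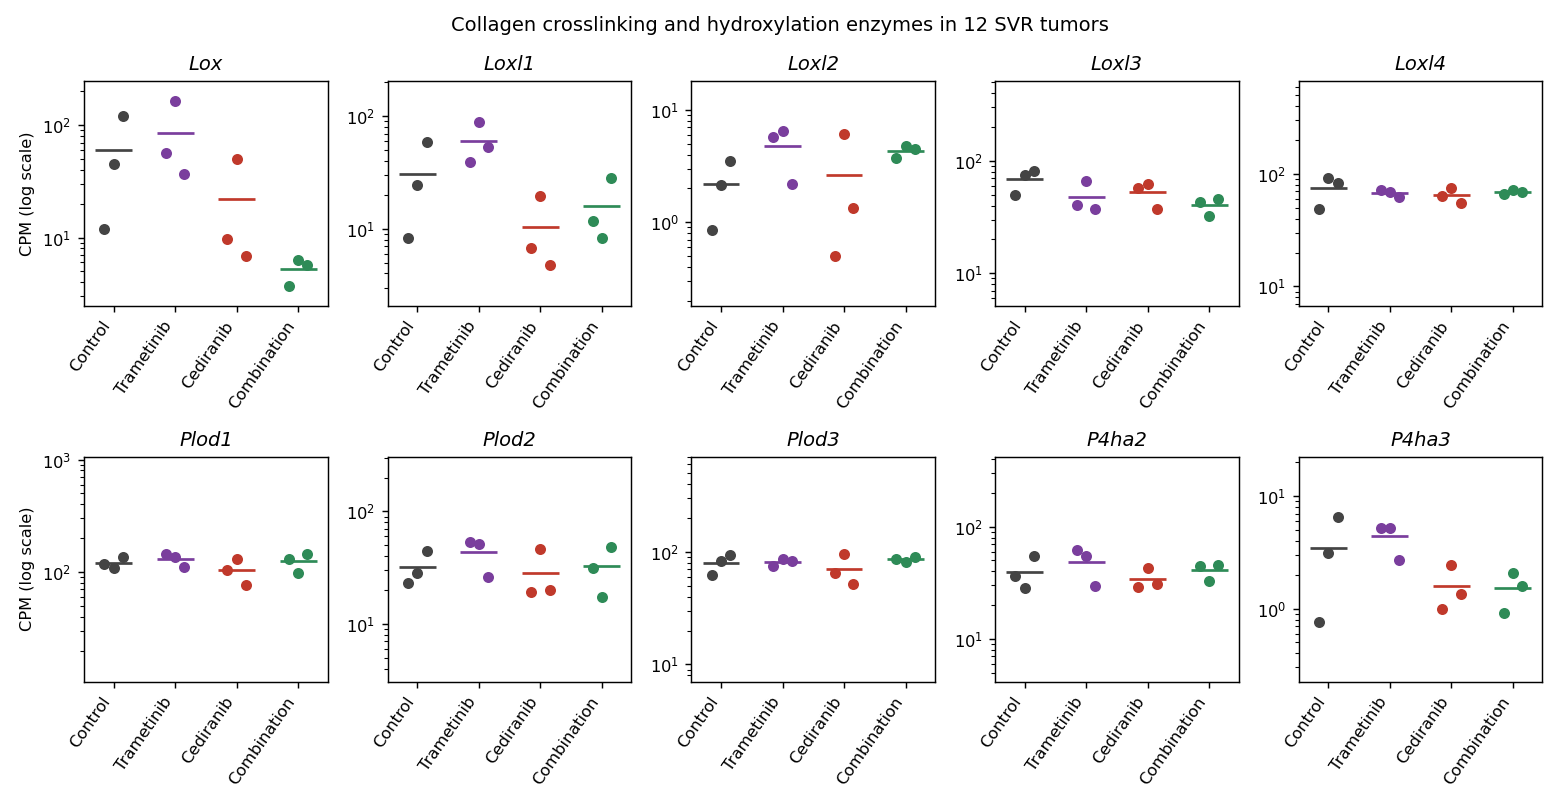
CPM (log scale) of the 10 enzymes in 12 SVR tumors, with 1 point per tumor, the group mean as a bar and the same number of decades on every vertical axis. The 3 combination points of Lox (3.74 to 6.26 CPM) lie under all other Lox points, whereas the points of Plod1, Plod3 and Loxl4 lie close together in every group.

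Of the 4 other lysyl oxidases, Loxl1, which is known for elastic fiber assembly, moved over the widest range. Its level was 8.26, 24.3 and 58.8 CPM in control 1, 2 and 3, and 39.4, 88.7 and 52.9 CPM in the trametinib tumors. The cediranib tumors held 6.69, 19.6 and 4.78 CPM, and the combination tumors 11.7, 8.26 and 28.3 CPM. Every combination value lay under every trametinib value, with a log2 fold change of -1.90 (SE 0.70, unadjusted p = 0.0186), but the edgeR FDR was 0.183. The remaining comparisons overlapped, including cediranib against control at -1.55 (SE 0.71, FDR = 0.999) and combination against control at -0.92 (SE 0.69, FDR = 0.428). Without control 3 they were -0.65 and -0.01.

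Loxl2, known for crosslinking of basement membrane collagen, was near the floor of the data, with 5 to 64 counts per library. It was at 0.852, 2.13 and 3.54 CPM in control and at 3.74, 4.81 and 4.46 CPM in the combination tumors, all 3 of which lay above the controls. Trametinib tumors held 5.72, 6.52 and 2.18 CPM, and cediranib tumors, at 0.500, 6.05 and 1.34 CPM, were spread over most of that range. The log2 fold change of combination against control was 1.01 (SE 0.72), with an edgeR FDR of 0.404 and a 95% interval of -0.57 to 2.59.

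Loxl3 differed in the same comparison without passing the threshold. Control tumors held 49.1, 75.3 and 80.4 CPM and combination tumors 42.8, 32.6 and 45.5 CPM, which do not overlap, and the log2 fold change was -0.76 (SE 0.27, unadjusted p = 0.0147, edgeR FDR = 0.0916), while DESeq2 placed it past the FDR but at too small a fold for a call. Trametinib tumors held 40.04, 66.1 and 36.9 CPM and cediranib tumors 57.1, 62.3 and 37.6 CPM, both groups overlapping the controls. Loxl3 shares 535 exon bases with Htra2 on the opposite strand, whose level was 41.0 to 42.7 CPM in control and 31.4 to 35.2 CPM in combination tumors, and with the strand setting of the counting unknown, reads on these shared bases, out of 4603 exon bases of Loxl3, cannot be assigned to either gene.

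Loxl4 was the steadiest of the family. It ran from 48.5 to 93.0 CPM in control tumors, from 62.2 to 71.9 CPM with trametinib, from 55.3 to 75.9 CPM with cediranib and from 66.3 to 72.3 CPM with the combination. For combination against control the log2 fold change was -0.12 (95% interval -0.56 to 0.33, edgeR FDR = 0.764), with a sign that turned to 0.02 when libraries were scaled by their totals. In that comparison 3 of 10 members (Lox, Loxl2 and Loxl3) had groups that did not overlap, close to the 31.3% of all genes tested for which this held, and 1 of 10 passed the FDR, against 9.98% of all genes (3.61% called).

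The 3 lysyl hydroxylases passed no threshold. Plod1, which acts on helical lysines, was at 118, 108 and 137 CPM in control, 143, 136 and 111 CPM in trametinib, 104, 131 and 77.03 CPM in cediranib and 130, 98.7 and 146 CPM in combination tumors. Its groups overlapped in every comparison, with log2 fold changes between -0.22 and 0.26 and edgeR FDRs of at least 0.471. The 95% interval of combination against control, -0.39 to 0.48, leaves room for a change of moderate size in either direction.

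Plod3, which also carries glycosyltransferase activity, ran from 62.9 to 94.5 CPM in control, 75.4 to 86.9 CPM in trametinib, 52.1 to 94.96 CPM in cediranib and 81.0 to 90.8 CPM in combination tumors. Its log2 fold changes in the pairwise comparisons were between -0.17 and 0.28, with edgeR FDRs of at least 0.440. Plod3 shares 529 exon bases with Znhit1 on the opposite strand, a gene at only 7.80 to 11.9 CPM.

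Plod2, which hydroxylates telopeptide lysines, was more variable. The control tumors held 22.9, 28.5 and 44.6 CPM, the trametinib tumors 53.8, 51.6 and 25.95 CPM, the cediranib tumors 19.4, 46.1 and 20 CPM, and the combination tumors 31.6, 17.4 and 48.2 CPM. Each group thus reached from the lower to the upper part of the whole range. In the pairwise comparisons the log2 fold changes lay between -0.43 and 0.45 with SEs of 0.43 to 0.44, and the smallest edgeR FDR was 0.630.

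Of the prolyl 4-hydroxylase alpha subunits, P4ha2 was at 36.2, 28.4 and 54.3 CPM in control, 61.7, 54.9 and 29.4 CPM in trametinib, 28.9, 42.7 and 30.6 CPM in cediranib and 44.6, 33.0 and 45.9 CPM in combination tumors. All pairs of groups overlapped, and the log2 fold changes were between -0.24 and 0.30 with edgeR FDRs of at least 0.625.

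P4ha3, the least abundant alpha subunit, was at 0.767, 3.14 and 6.57 CPM in control and 5.27, 5.24 and 2.68 CPM in trametinib tumors. Cediranib tumors held 1.00, 2.46 and 1.34 CPM and combination tumors 0.909, 2.09 and 1.58 CPM. Each combination value was under each trametinib value, with a log2 fold change of -1.51 (SE 0.63, unadjusted p = 0.0339, edgeR FDR = 0.239), and the groups overlapped in the other pairwise comparisons made. Combination against control gave -1.17 (SE 0.63, FDR = 0.258), a value that was -0.33 without control 3.

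Across the single-drug comparisons, 0 of 10 members were called by edgeR for trametinib against control, where 2.4% of all genes were called and 6.12% passed the FDR at any fold. There, 0 of 10 members had an unadjusted p under 0.05, compared with 20.7% of all genes. For cediranib against control 0 members and 0 genes, or 0% of all tested, were called or passed the FDR. In that comparison 1 member (Loxl1) had an unadjusted p under 0.05, compared with 4.32% of all genes, and DESeq2 called 9 genes and 0 members. Combination against trametinib had 0 members called by edgeR, 3 with an unadjusted p under 0.05 (Lox, Loxl1 and P4ha3) and 1 called by DESeq2 (Lox), while 17.9% of all genes had such a p and 2.69% were called by DESeq2. The same 3 members did not overlap between these groups, as was so for 24.2% of all genes. Combination against cediranib had 0 called by either tool and 1 with an unadjusted p under 0.05 (Lox), against 2.45% of all genes called, 7.68% past the FDR and 23.1% with such a p. For the interaction 0 members and 0% of all genes passed by edgeR, and 0 members had an unadjusted p under 0.05, compared with 7.05% of all genes.

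**Figure D2:**
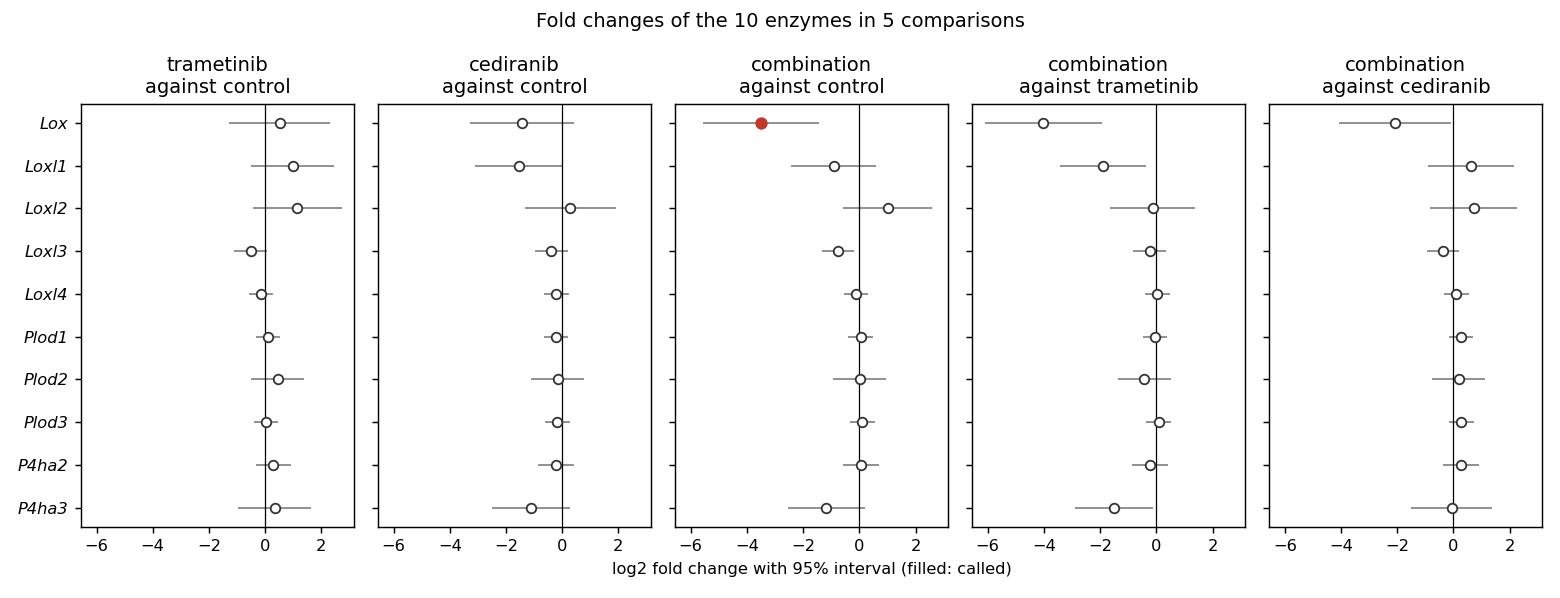
Log2 fold changes of the 10 enzymes with 95% intervals in the 5 pairwise comparisons, filled where called (FDR under 0.05 and a log2 fold change of at least 1.5 in size). The 1 filled point is Lox in combination against control (-3.50), and intervals are wide for Lox, Loxl1, Loxl2 and P4ha3 and narrow for Loxl4, Plod1 and Plod3.

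The members differed in how much tumors varied. Over all 12 tumors, group differences included, Lox differed 43.6-fold between its lowest and highest tumor, Loxl1 18.5-fold, Loxl2 13.1-fold and P4ha3 8.57-fold, against 1.82 to 3.09-fold for the other 6. Within a group the widest ranges were 12.1-fold for Loxl2 (cediranib), 10.1-fold for Lox, 8.57-fold for P4ha3 and 7.12-fold for Loxl1 (all 3 in control), and at most 2.76-fold for the other 6. The within-group SD of log2 CPM was 1.26 for Lox, larger than for 97.6% of all genes tested, and 1.03, 1.02 and 0.860 for Loxl1, Loxl2 and P4ha3. It was 0.273 for both Plod1 and Plod3, close to the median of all genes (0.295), and the median over the 10 members was 0.528. Loxl2 and P4ha3 had few counts, and counting error enters their spread, whereas Lox had 37 to 1399 counts per library.

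Levels were compared between members as RPKM, that is CPM per kilobase of the gene's length in the table, although probe capture also enters them. Plod1 (17.8), Plod3 (17.6) and Loxl4 (16.5) had the highest means over 12 tumors, and their tumors overlapped widely. Loxl3 followed at 11.3, then Lox (8.96) and Loxl1 (8.89), whose means differed by far less than their spread, then P4ha2 (6.55) and Plod2 (6.34), which overlapped as well. P4ha3 (0.878) and Loxl2 (0.645) were lowest and overlapped with each other. This order of the pooled means did not hold in each group: in trametinib tumors the means of Loxl1 (18.3) and Lox (17.8) were above that of Loxl4 (16.1), and in combination tumors Lox was at 1.08.

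**Figure D3:**
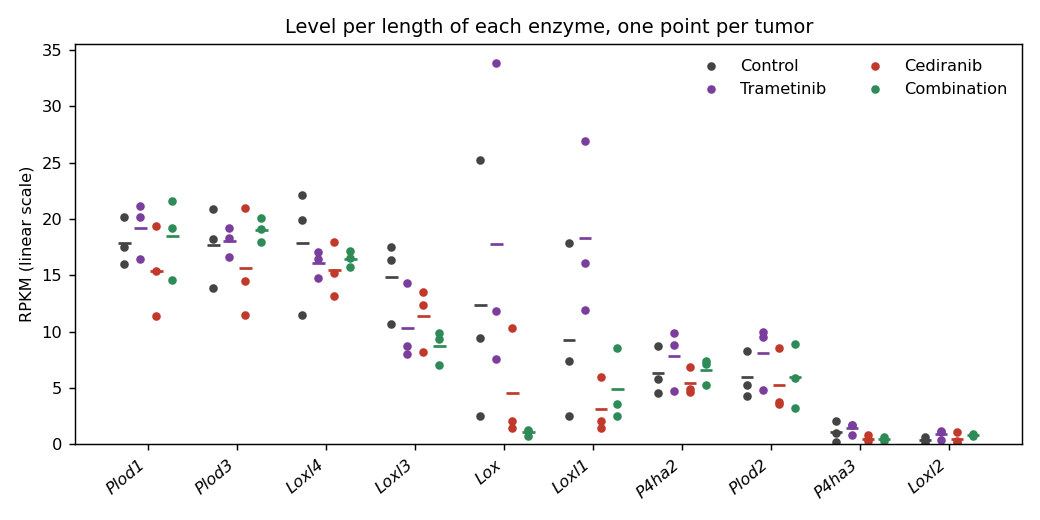
RPKM (linear scale) of each enzyme, ordered by the mean over 12 tumors, with 1 point per tumor colored by group and bars for group means. Plod1, Plod3 and Loxl4 are the most abundant at 16.5 to 17.8 on average, P4ha3 and Loxl2 lie below 2.10 in every tumor, and Lox reaches from 0.777 in combination 1 to 33.9 in trametinib 2.

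The share of each enzyme within its family, per length, described the same data without reference to the rest of the transcriptome. Lox made up 9.13 to 31.1% of the summed lysyl oxidase RPKM in control, 16.2 to 36.5% in trametinib and 5.86 to 21.1% in cediranib tumors, and 2.59 to 4.50% in combination tumors. Loxl4 made up 44.6 to 59.3% in combination tumors, compared with 24.6 to 42.1% in control, 17.8 to 33.7% in trametinib and 36.8 to 53.7% in cediranib tumors, the last of which it overlapped. Loxl1 had its highest shares with trametinib (23.6 to 34.3%, compared with 9.17 to 22.0% in control), and Loxl3 its lowest (15.5 to 17.2%, compared with 21.5 to 39.1% in control).

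Within the hydroxylase families the shares of treated tumors overlapped with those of control tumors. P4ha3 held 0.438 to 3.81% of the alpha subunit RPKM in control, 1.68 to 2.51% in trametinib, 0.894 to 1.25% in cediranib and 0.502 to 1.67% in combination tumors. Plod1 and Plod3 each held 34.9 to 50.1% of the lysyl hydroxylase RPKM in all 12 tumors, and Plod2 9.05 to 20.9%. P4ha1, the main alpha subunit and not a member, held 80.4 to 89.2% of the alpha subunit RPKM, so that P4ha2 and P4ha3 were minor forms in every group.

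**Figure D4:**
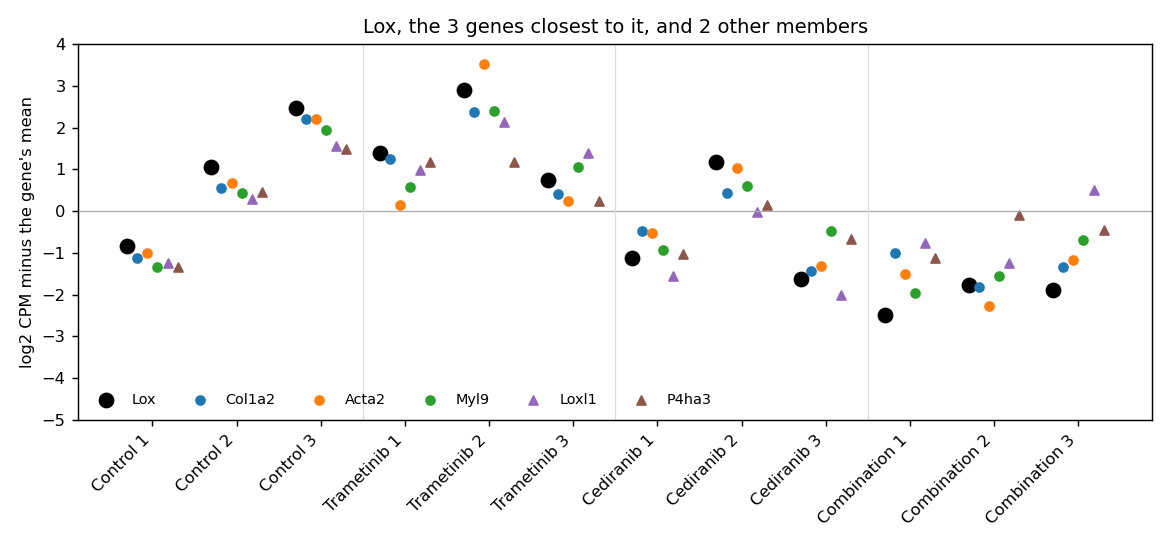
Log2 CPM of Lox, of the 3 genes closest to it and of Loxl1 and P4ha3 in each tumor, as the difference from the gene's mean over 12 tumors. Col1a2, Acta2 and Myl9 lie near Lox in most tumors, and Loxl1 and P4ha3 lie above it in all 3 combination tumors.

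Among all 12897 genes, the 3 whose profile over the 12 tumors was closest to that of Lox were Col1a2 (a chain of type I collagen), Acta2 (smooth muscle actin) and Myl9 (a myosin light chain), with root mean square differences of 0.605, 0.622 and 0.670 in centred log2 CPM. All points share the libraries and their scaling. Loxl1 ranked 50 and P4ha3 52, with 1.06 and 1.07, and the other 7 members ranked between 494 and 2669.

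Col1a2 was at 371, 1187 and 3717 CPM in control, 1912, 4158 and 1066 CPM in trametinib, 586, 1097 and 301 CPM in cediranib and 406, 230 and 319 CPM in combination tumors. As for Lox, control 3 and trametinib 2 were highest, but combination 1 lay above control 1. For combination against control the log2 fold change was -2.47 for Col1a2 (SE 0.75, edgeR FDR = 0.0567), -2.76 for Acta2 (SE 1.01, FDR = 0.105) and -2.27 for Myl9 (SE 0.78, FDR = 0.0868), so none of the 3 passed the threshold.

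The proteins that lysyl oxidases act on or that scaffold them, among them fibrillar collagens, elastin and fibronectin, were represented by 21 genes, of which 20 were tested. Against control, the combination lowered 2 of 20 at the edgeR FDR, a share close to the 9.98% of all genes, and raised 0, and 6 of 20 passed by DESeq2, compared with 14.6% of all genes. Of the 20, 14 had a log2 fold change below 0, and the median was -0.78, against a median of 0.00 for all genes. Col5a2, a chain of type V collagen that is built into type I fibrils, fell from 75.1 to 518 CPM in control to 23.2 to 46.7 CPM in combination tumors (log2 fold change -2.82, SE 0.73, FDR = 0.0318). Col4a1, a chain of basement membrane collagen, fell from 97.9 to 222 CPM to 56.96 to 66.2 CPM (-1.20, SE 0.34, FDR = 0.0461). In the other 4 pairwise comparisons 0 of 20 passed by edgeR, while 1 to 8 had an unadjusted p under 0.05, 0 to 4 passed by DESeq2, and the medians were 0.20 for trametinib against control, -0.92 for cediranib against control, -0.88 for combination against trametinib and 0.11 for combination against cediranib.

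The intracellular partners of collagen modification and the enzymes that trim procollagen gave 21 tested genes of 25. Combination against control lowered 1 of 21, Fkbp7, a prolyl isomerase of the endoplasmic reticulum (3.83 ± 0.677 compared with 7.30 ± 1.56 CPM, SD, n = 3; log2 fold change -0.93, edgeR FDR = 0.0376), where 9.98% of all genes passed. There, 8 of 21 had an unadjusted p under 0.05 in edgeR, compared with 27.2% of all genes. By DESeq2 4 passed (Fkbp14, Fkbp7, Adamts2 and Pcolce), compared with 14.6% of all genes, and of these Pcolce was higher (0.73 in edgeR). Combination against cediranib raised 1 of 21, Pcolce, which enhances procollagen C-proteinase (87.1 ± 20.3 compared with 48.4 ± 11.4 CPM; log2 fold change 0.85, edgeR FDR = 0.0407), where 7.68% of all genes passed. In this comparison 7 of 21 had an unadjusted p under 0.05 in edgeR, compared with 23.1% of all genes. DESeq2 passed 2 (Pcolce and Pcolce2), compared with 11.7% of all genes. In the other 3 pairwise comparisons 0 of 21 passed by edgeR, 1 to 5 had an unadjusted p under 0.05 and 0 to 2 passed by DESeq2. P4hb, the beta subunit of the prolyl 4-hydroxylases, was at 141 to 242 CPM in all tumors, and P4ha1 at 126 to 233 CPM.

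Since Lox and Plod2 are hypoxia targets, 17 further hypoxia response genes were counted, of which 14 were tested. The combination raised 1 of 14 against control, the glycolytic regulator Pfkfb4 (log2 fold change 1.01, SE 0.29, edgeR FDR = 0.0479), where 9.98% of all genes passed, and the median was 0.19. There, 3 of 14 had an unadjusted p under 0.05 in edgeR, compared with 27.2% of all genes. DESeq2 passed 2 (Aldoc and Pfkfb4), compared with 14.6% of all genes. In the other 4 pairwise comparisons 0 of 14 passed the FDR by edgeR or DESeq2, 0 or 1 had an unadjusted p under 0.05, and the medians lay between 0.06 and 0.09. The summed level of the 17 genes was 1162 to 2307 CPM in control and 1618 to 1863 CPM in combination tumors. Any part of hypoxia in the Lox result was not tested.

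In whole tumors, fewer cells that express a gene and less RNA per cell cannot be told apart, so markers of the cell types that could contribute were set beside Lox. Of the 6 fibroblast markers tested, 3 had a log2 fold change above 0 and 3 below it in combination against control. At the edgeR FDR 1 fell (Pdgfrb, -1.67, SE 0.44, FDR = 0.0351) and 0 rose. By DESeq2 3 passed, Pdgfrb, Fap and Pdgfra. In edgeR Fap was lower (-1.37) and Pdgfra higher (0.74). The 10 fibroblast markers summed to 39.9 to 88.5 CPM in control, 87.5 to 98.4 in trametinib, 26.3 to 63.2 in cediranib and 43.6 to 73.2 in combination tumors, with 1 of 10, Mfap5, at 0 in all combination tumors. Control and combination tumors overlapped in this sum, which adds markers that moved in both directions.

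Of 8 tested markers of pericytes and smooth muscle, Abcc9 (-3.36), Tagln (-2.42) and Rgs5 (-1.90) fell and Notch3 rose (1.92) in combination against control, with edgeR FDRs of 0.0158, 0.0424, 0.0433 and 0.0110. The sum of all 10 was 95.8 to 466 CPM in control, 194 to 1867 in trametinib, 90.0 to 235 in cediranib and 90.2 to 247 in combination tumors, with 0 of 10 at 0 throughout a group. Des alone reached 274 CPM in control and 858 CPM in trametinib tumors. Each of these groups held a tumor rich in muscle transcripts (control 2 and trametinib 2). In combination tumors Notch3 (43.3 to 157 CPM, compared with 19.5 to 27.9 CPM in control) had the highest mean of the 10, whereas Acta2 (16.8 to 36.4 compared with 41.4 to 379 CPM) and Abcc9 (0.0928 to 0.454 compared with 1.36 to 4.66 CPM) lay below control without overlap. Control 1, low in Lox, was also the control tumor lowest in this sum. It was lowest of the controls in the fibroblast, endothelium, macrophage and adipocyte sums too, but not in those of skeletal muscle or epidermis markers. Controls 2 and 3 had similar sums of pericyte and smooth muscle markers (465 and 466 CPM), with Lox at 45.3 and 122 CPM.

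Of 9 tested endothelium markers, 5 fell in combination against control by the edgeR FDR (Pecam1 at -2.93, Tie1 at -2.43, Cdh5 at -2.37, Kdr at -2.24 and Flt1 at -1.41). Their sum was 208 to 432 CPM in control, 50.7 to 112 in trametinib, 122 to 327 in cediranib and 33.7 to 85.0 in combination tumors. Trametinib alone against control had 4 of 9 past the FDR, all lower. In trametinib tumors 1 of 10 (Emcn) was at 0 in all libraries.

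Epidermis markers, taken as a sum, were highest in the combination tumors. They summed to 16.8 to 616 CPM in control, 0.837 to 6.36 in trametinib, 38.8 to 2838 in cediranib and 2952 to 4408 in combination tumors. In combination against control 2 of 9 tested, Krt15 (4.25, FDR = 0.0436) and Trp63 (4.08, FDR = 0.0396), rose by edgeR. Of the 9, 8 had a log2 fold change above 0. Ivl went the other way, with means of 5.83 CPM in combination and 17.9 CPM in control tumors (-1.61, edgeR FDR = 0.1045). By DESeq2 Trp63 and Ivl passed the FDR and Krt15 did not. Macrophage markers summed to 391 to 686 CPM in control and 178 to 317 CPM in combination tumors, and 3 of 9 fell (Cd68, Csf1r and Mrc1). The part of any of these cell types in the Lox result was not tested.

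**Figure D5:**
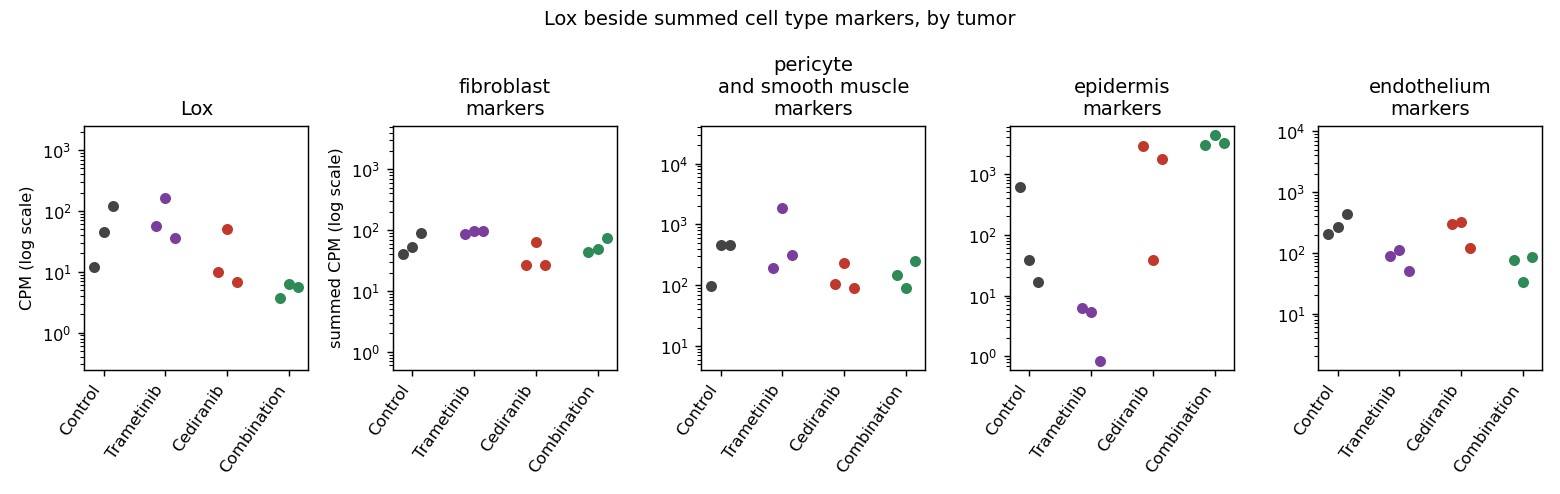
CPM of Lox and summed CPM of 10 markers each of fibroblasts, pericytes and smooth muscle, epidermis and endothelium (log scales of 4 decades), with 1 point per tumor. Combination tumors are lowest for Lox (3.74 to 6.26 CPM) and highest for epidermis markers (2952 to 4408 CPM), and overlap control tumors in the fibroblast sum and in the pericyte and smooth muscle sum, of which Notch3 had the highest mean in combination tumors.

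In position, the 10 genes lie on 9 chromosomes, with Loxl1 (58287738 to 58313186) and Plod2 (92542223 to 92608428) both on chromosome 9. Lox shares 30 of its 4778 exon bases with an antisense gene, and Loxl2 301 and Plod2 346 with transcripts on the opposite strand, while Loxl1, Loxl4, Plod1, P4ha2 and P4ha3 overlap no other annotated gene.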

How the data were processed

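RNA sequencing libraries of 12 SVR tumors, 3 per group, were made with exome capture. The values the authors deposited were unnormalized counts, made with bcl2fastq 1.8.4, STAR 2.7.1a (GRCm38) and featureCounts 1.6.0. Strandedness, annotation release and multi-mapping rules were not given in the sources used here. Samples were grouped by their treatment labels.

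Genes passing filterByExpr (minimum count 10, minimum total 15) were scaled with TMM. All 12 libraries entered a single edgeR 4.0.16 quasi-likelihood fit (R 4.3.3). FDRs are Benjamini-Hochberg values over 12897 genes, and SEs were derived from the fold change and its F statistic. CPM, RPKM (with the length column of the table) and log2 CPM (prior count 2, for spread and likeness) were computed from the counts. The common biological coefficient of variation was 27.2%. At these depths 3 counts, the limit that a count of 0 allows, equal 0.251 to 0.349 CPM. This covers counting error only.

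All members are reported in every comparison. From each gene list at most 5 genes past the FDR per comparison were eligible to be named, with the largest absolute fold changes, and for Lox the 3 genes of most similar profile. Tie1, Cdh5, Emcn and Des levels, list genes named as past the DESeq2 FDR alone and gene overlaps were added after their values were seen. The members and lists were chosen with earlier results of these data known. Alternatives were DESeq2 1.42.0 size factors and its Wald test, library totals, no filter, 2 groups at a time, a replicate block, the FDR alone and leaving out each tumor. The scripts were tested on simulated data. No 2 libraries were identical, and same-numbered tumors of different groups did not deviate together (correlations of -0.219 to 0.356), so numbers were not taken as pairs. Overlaps come from GENCODE M21, which has the deposited coordinates for 8 of 10 members (not Lox and P4ha2).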

Additional observations from a re-analysis of the deposited data

How the results depend on the processing

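The fall of Lox in combination against control stayed past the threshold with DESeq2 size factors, library totals, no filter, DESeq2's Wald test, only 2 groups in the fit and the replicate block (log2 fold changes of -3.34 to -3.51), but leaving out single tumors gave -3.99 to -2.45 and kept 0 or 1 member called, with the call lost in 5 of 6 cases. Combination against trametinib had 1 member called (Lox) by DESeq2 and with only 2 groups in the fit.

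Without the filter 1 member was called for cediranib against control (Loxl1), 2 for combination against trametinib (Lox and Loxl1), and 1 each (Lox) for combination against cediranib and the interaction. The unfiltered fit of 29102 genes gave an infinite prior degree of freedom and lowered the quasi-dispersion of Lox from 10.4 to 0.504, so its FDRs do not reflect the spread of Lox between tumors. Genes called then numbered 687, 324, 1129, 773, 637 and 261 in the order trametinib, cediranib and combination (each against control), then the combination against each single drug (trametinib, then cediranib) and last the interaction, compared with 310, 0, 466, 87, 316 and 0. DESeq2 called 9 genes for cediranib against control, 347 for combination against trametinib and 27 for the interaction. Only 2 groups in the fit gave 274, and the replicate block 57, for combination against trametinib. The block changed no member's call, and the numbers do not pair the tumors. With the FDR alone 789, 1287 and 991 genes passed for trametinib against control, combination against control and combination against cediranib. Leaving out single tumors gave 0 to 7 genes for cediranib against control, 188 to 275 for combination against cediranib, 237 (without control 3) to 575 (without control 1) for combination against control, 0 to 21 for combination against trametinib and 0 or 1 for the interaction.

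Scaling by library totals moved the median of all genes by 0.114 to 0.13 in the comparisons that involve the combination and turned the sign of 5 small fold changes: Loxl4 in combination against control (0.02), Loxl2 (0.01) and Plod1 (0.08) in combination against trametinib, P4ha3 in combination against cediranib (0.07) and P4ha2 in the interaction (0.11; 0.02 without the filter). Leaving out single tumors turned further signs, none past the threshold. The ranges were, for trametinib against control, Lox -0.35 to 1.57, Loxl4 -0.40 to 0.04, P4ha3 -0.16 to 1.18 and Plod3 -0.13 to 0.17. For cediranib against control they were Loxl2 -1.21 to 0.84, P4ha2 -0.41 to 0.08 and Plod2 -0.70 to 0.15. For combination against control they were Loxl4 -0.36 to 0.06, P4ha2 -0.14 to 0.35, Plod1 -0.09 to 0.19, Plod2 -0.39 to 0.33 and Plod3 -0.04 to 0.24. For combination against trametinib they were Loxl2 -0.48 to 0.14, Loxl3 -0.38 to 0.06, Loxl4 -0.02 to 0.08 and Plod1 -0.18 to 0.10. For combination against cediranib they were Loxl1 -0.05 to 1.48, P4ha3 -0.34 to 0.38 and Plod2 -0.21 to 0.72. For the interaction they were Loxl1 -1.26 to 0.50, Loxl2 -0.98 to 1.07, Loxl3 -0.02 to 0.45, P4ha2 -0.32 to 0.19, P4ha3 -1.24 to 0.11 and Plod2 -0.66 to 0.26. With 3 tumors per group and 5 to 65 counts for Loxl2 and P4ha3, changes in these genes are poorly resolved. Except where stated, the cause of a changed value was not tested.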
